A study of Rattus norvegicus with 12 samples.

Results

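The genes described here encode the proteasome, its regulatory caps and the factors that assemble it. They were found by symbol: every gene of the array's annotation with a probe assigned to it alone and a symbol starting with Psma, Psmb, Psmc, Psmd, Psme, Psmf or Psmg and a digit, and where a gene had more than 1 such probe the brightest was followed. This gave 48 genes of 18166 tested. Of these, 43 fall into role groups: 6 alpha and 7 beta subunits of the constitutive core, 4 subunits of the immunoproteasome and thymoproteasome, 6 ATPases and 11 further subunits of the regulatory particle, 4 genes for other caps and an inhibitor, and 5 assembly factors. The other 5 carry a matching symbol without belonging to the complex in an established way: Psmc3ip, Psme3ip1, Psmb3l2 and the pseudogenes Psma6-ps1 and Psmd1-ps1. Psma3 and Psme3 were on probes shared by several symbols and Psma8, Psmd10 and Psmg3 were not in the annotation used, so these 5 were not analysed here.

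The proteasome degrades proteins that have been tagged with ubiquitin. Its core is a barrel of stacked alpha and beta rings with the proteolytic sites inside, and the regulatory particle that caps it recognises, unfolds and feeds in the substrate. In many cells transcription of the subunit genes is raised together when proteasome capacity is short, through the factor NRF1 (gene Nfe2l1), and the related factor NRF2 (Nfe2l2), which answers to oxidants, can raise some of the same genes. In the heart the proteasome takes part in clearing damaged contractile proteins, and interferon exchanges the catalytic core subunits for their immunoproteasome counterparts.

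SIN-1 (3-morpholinosydnonimine) releases nitric oxide and superoxide together and is used as a source of the oxidant peroxynitrite. Primary wild-type rat cardiomyocytes, grown in medium with fetal and horse serum, were left as control or treated with SIN-1 for 70 min, 4 h or 8 h, and total RNA from each of 12 samples was hybridised to its own whole-transcript array, 3 for each of the 4 groups. The labels give neither the dose of SIN-1, nor the age of the rats, nor a culture time or vehicle for the control, and all 3 treated times are set against the same 3 control arrays. The design text speaks of biological triplicates without stating separate cultures, so p-values measure the spread between these samples, which may be technical. Values are log2 expression, in which a difference of 1 is a doubling.

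The labelled cell type was set against marker genes. The 9 cardiomyocyte markers tested had means of 3.57 to 5.84, and Myh6, Myh7 and Ryr2, which encode cardiac myosin heavy chains and the calcium release channel, lay below 4.34, the median of probes without an annotated gene; Tnnt2, cardiac troponin T, had the mean of 5.84. The 10 fibroblast markers had means of 4.83 to 12.77, the last for the collagen gene Col1a1. The ranges of both lists overlapped only in the 3 lowest fibroblast markers. Tcf21, Pdgfra and Dcn had means of 4.83, 5.69 and 5.83, and Tnni3 of the cardiomyocyte list had 5.57. The other fibroblast markers had means of 6.23 (Thy1) to 12.77, where the highest cardiomyocyte mean was 5.84. The 5 smooth muscle and pericyte markers tested had means of 5.67 to 12.46, the last for Tagln. Probes differ in brightness, so these levels do not measure the share of each cell type. The cells are called by their label, with 3 defining cardiomyocyte markers below the median of unannotated probes. In such bulk samples fewer cells of a type and less RNA per cell cannot be told apart. Arrays carry the replicate numbers of the labels. Over all probes, 70 min arrays 2 and 3 had medians of 5.11 and 5.12, 4 h array 3 had 5.09, and the other 9 arrays had 4.98 to 5.05.

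A part of the proteasome genes was modestly higher at 70 min and 4 h of SIN-1, most of them subunits of the regulatory particle, and none was called at 8 h. At 70 min 12 of the 43 genes of the role groups rose and 0 fell (limma, adjusted p under 0.05 over all genes), which is 27.9%. Of all genes 6.76% were called higher and 7.81% lower. The median standard error (SE) was 0.08 over the 43 genes, 0.07 over the regulatory particle and 0.13 over all genes. An equal change therefore passes more readily among the proteasome genes, so the shares of all genes are an unlike baseline. The part of this in the counts was not tested. At 4 h 5 of 43 rose and 0 fell, where 2.08% of all genes were called higher and 1.77% lower. These 5 were all among the 12. At 8 h 0 of 43 were called by limma, and only 5 of all 18166 genes (0.0275%) were called in either direction. An unadjusted limma p under 0.05 was found there for 3 of 43, beside 993 of all 18166. The changes were small: the median log2 fold change over the 43 genes was 0.13, 0.15 and 0.06 at the 3 times, beside 0.03, 0.01 and 0.01 over all genes, with 34, 36 and 35 of the 43 above 0 (55.2%, 53.6% and 54.5% of all genes). At 70 min and 4 h 0 of 43 genes were both called and changed by at least 1.5-fold, as 4.07% and 0.98% of all genes were. All 3 treated arrays lay above all 3 control arrays for 21 of 43 genes at 70 min (16.8% of all genes did so), for 23 at 4 h (11.6%) and for 7 at 8 h (7.98%).

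**Figure D1:**
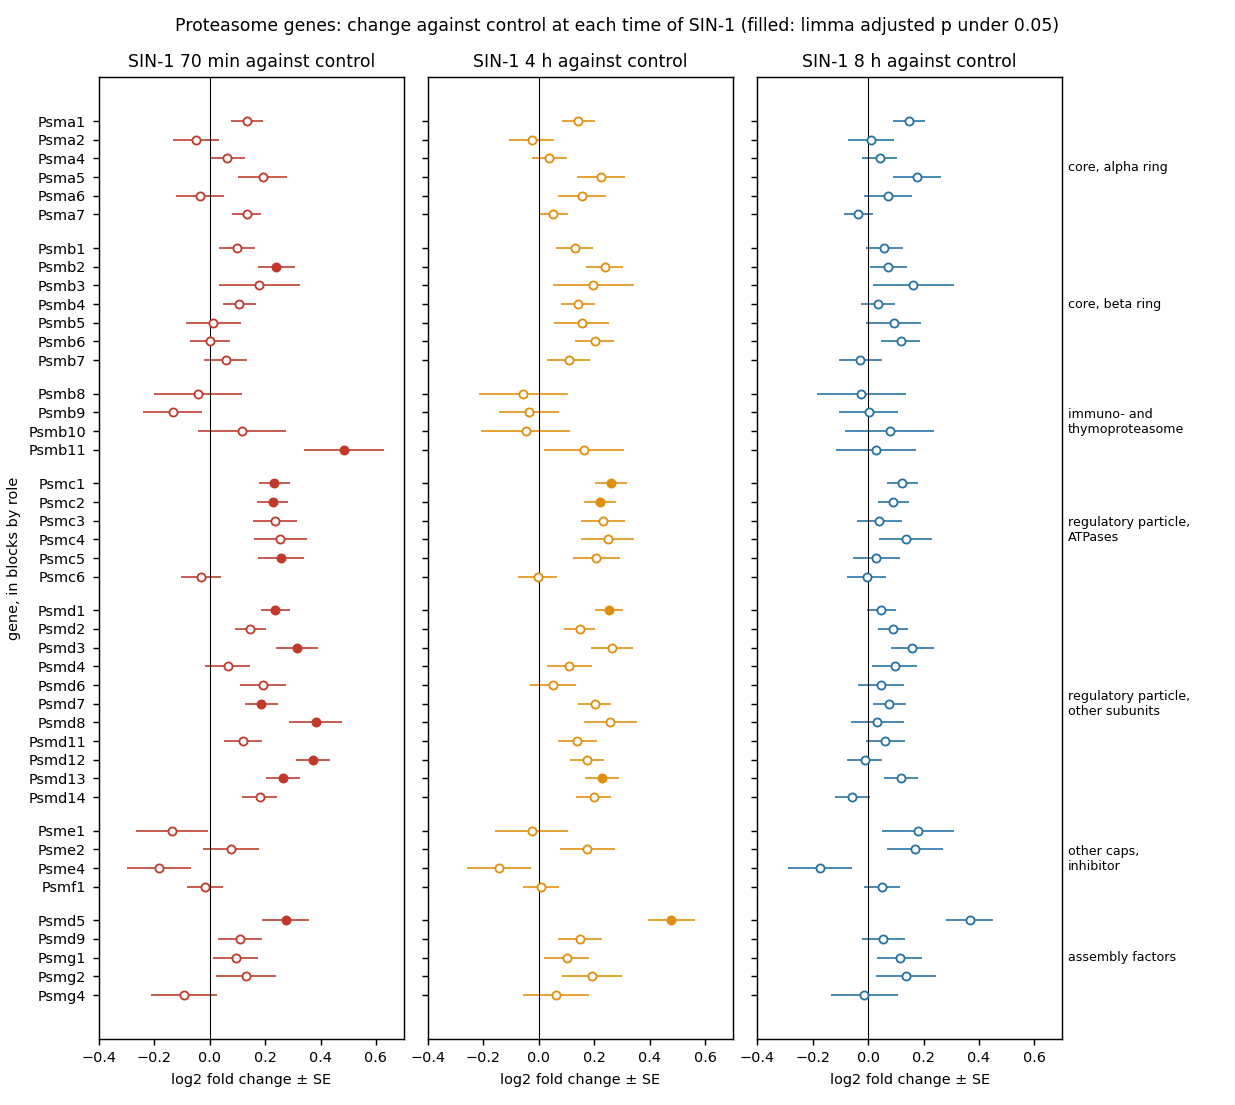
Log2 fold change ± SE against control (x axis) of each of the 43 proteasome genes (y axis, in blocks by role) at 70 min, 4 h and 8 h of SIN-1; filled points were called at a limma adjusted p under 0.05. The regulatory particle holds 9 of the 12 filled points at 70 min and 4 of the 5 at 4 h, and none is filled at 8 h.

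The 70 min count depended on scaling and on single arrays. With every array centred on its own median, 1 of 43 genes was called higher at 70 min (Psmd12) and 1 at 4 h (Psmd5), and without a trend in the prior variance 4 and 1. Leaving out the 3 arrays with the brightest medians, which was decided on after looking at the values, gave 4 and 2. The 70 min count was 6 without control array 1, 5 without control array 2 and 7 without 70 min array 1. The 4 h count was 2 without control array 1, 1 without control array 2, 2 without 4 h array 1, and 3 without 4 h array 3 or 8 h array 2. Fibroblast markers moved in the same arrays: 4 of 10 were called lower at 70 min (7.81% of all genes were), 1 at 4 h (1.77%) and 0 at 8 h. Their mean over the list ran from 8.94 to 8.99 in the control arrays, 8.56 to 8.68 at 70 min, 8.78 to 8.88 at 4 h and 8.95 to 9.05 at 8 h. Of 5 smooth muscle and pericyte markers 1 was called higher at 70 min (Tagln, beside 6.76% of all genes) and 1 lower at 4 h (Pdgfrb, beside 1.77%). Of 5 endothelial markers 1 was called lower at 70 min, beside 7.81% of all genes. Against control 0 of 9 cardiomyocyte and 0 of 9 macrophage and leukocyte markers were called at any time. The mean over the smooth muscle and pericyte list ran from 8.25 to 8.32 in control, 8.22 to 8.36 at 70 min, 8.12 to 8.16 at 4 h and 8.30 to 8.33 at 8 h. The part of these shifts in the proteasome values was not tested.

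The promoters of 38 of the 43 genes were in a RefSeq table of assembly GRCr8, and the 250 bases before each start were searched on both strands for 4 short motifs. The core of the antioxidant response element, TGACNNNGC, which NRF1 and NRF2 bind with small MAF partners, was found in 6 (15.8%, against 10.1% of all 33469 promoters): Psmb2, Psmb5, Psmb6, Psmd1, Psmd9 and Psme4. The CCAAT box was found in 16 (42.1% against 34.0%), a palindrome of the kind bound by nuclear respiratory factor, another protein than the NRF1 above (GCGC, any 2 bases, GCGC) in 4 (10.5% against 4.8%) and a repeat of the kind bound by interferon regulatory factors (GAAA, any 2 bases, GAAA) in 5 (13.2% against 3.41%), the last being Psma4, Psmb3, Psmb10, Psmd7 and Psme2. With the 50 bases after the start included, TGACNNNGC was in 7 promoters and 12.1% of all. Each member was counted by its first promoter in the table. The shares over all count every promoter of the table, whether or not its gene was tested, so the sets compared are unlike. Such a match is a description of the letters and shows no binding. The antioxidant core promoters of 4 genes are shown, those with the smallest p in the F test over the groups. Of these, 2 (Psmd1 and Psmb2) rose and the other 2 (Psmb6 and Psmd9) were not called. The F test uses the same values as the calls, so this choice favours genes that changed. Capitals mark the match on either strand. They lie at chr9:94157721-94157970 (plus strand), chr5:144254808-144255057 (plus), chr10:55737638-55737887 (plus) and chr12:39018265-39018514 (minus), each printed 5′ to 3′ in the gene's sense and ending at the base before the start.
Psmd1: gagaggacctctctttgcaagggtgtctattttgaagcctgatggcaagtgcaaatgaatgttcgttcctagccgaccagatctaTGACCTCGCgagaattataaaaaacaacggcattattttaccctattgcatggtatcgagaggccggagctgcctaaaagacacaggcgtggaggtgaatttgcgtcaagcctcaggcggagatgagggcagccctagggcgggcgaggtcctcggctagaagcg
Psmb2: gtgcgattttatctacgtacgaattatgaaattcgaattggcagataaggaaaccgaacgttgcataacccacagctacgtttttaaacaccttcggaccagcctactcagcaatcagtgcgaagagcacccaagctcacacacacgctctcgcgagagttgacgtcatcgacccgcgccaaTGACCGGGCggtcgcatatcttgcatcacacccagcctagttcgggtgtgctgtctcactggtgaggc
Psmb6: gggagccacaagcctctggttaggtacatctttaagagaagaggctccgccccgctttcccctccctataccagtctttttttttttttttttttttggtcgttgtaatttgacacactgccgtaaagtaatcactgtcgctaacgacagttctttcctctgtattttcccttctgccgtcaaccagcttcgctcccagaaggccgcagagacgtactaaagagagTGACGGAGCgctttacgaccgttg
Psmd9: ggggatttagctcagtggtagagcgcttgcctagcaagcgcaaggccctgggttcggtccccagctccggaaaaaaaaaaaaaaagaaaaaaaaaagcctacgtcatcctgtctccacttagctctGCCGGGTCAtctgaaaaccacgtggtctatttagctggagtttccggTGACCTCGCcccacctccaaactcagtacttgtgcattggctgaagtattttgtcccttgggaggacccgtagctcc
The matches lie at -165 to -157 in Psmd1, -68 to -60 in Psmb2 and -24 to -16 in Psmb6, counted from the start. Psmd9 holds one at -77 to -69 and another on the opposite strand at -124 to -116. Of the 12 genes called at 70 min, Psmd1 and Psmb2 are those found to hold the motif in this window, beside 6 of the 38 genes searched (15.8%).

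The regulatory particle carried most of the calls. At 70 min 9 of its 17 genes found by symbol rose (52.9%, against 6.76% of all genes), with a median log2 fold change of 0.23. At 4 h 4 of 17 rose (23.5%, against 2.08% of all genes), with a median of 0.21. At 8 h 0 rose and the median was 0.06. The treated arrays were all above the control arrays for 14 of 17 genes at 70 min (16.8% of all genes). The same held for 14 at 4 h (11.6% of all genes) and for 4 at 8 h (7.98%). The 11 subunits without ATPase activity found by symbol belong to the lid or are receptors and scaffolds of the base, and 6 of them rose at 70 min. Sem1 and Adrm1, also parts of the regulatory particle, do not match the symbol rule. They are counted among the partners below, and neither was called against control. Psmd12, a lid subunit, had log2 values of 9.07, 8.98 and 9.15 in control, 9.49, 9.44 and 9.39 at 70 min, 9.26, 9.29 and 9.16 at 4 h and 9.01, 9.07 and 9.08 at 8 h. The 70 min arrays lay above all others and the 8 h arrays within the control range. The log2 fold change was 0.37 ± 0.06 (SE) at 70 min (1.3-fold, adjusted p = 0.000532), 0.17 at 4 h (adjusted p = 0.167) and -0.01 at 8 h. This call held when any of the 12 arrays was left out and with arrays centred (0.32, adjusted p = 0.028), and the change was smaller than the 1.5-fold minimum.

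Psmd8, another lid subunit, read 7.25, 7.17 and 7.31 in control, 7.66, 7.72 and 7.50 at 70 min, 7.57, 7.48 and 7.45 at 4 h and 7.09, 7.32 and 7.41 at 8 h. Its treated arrays were above control at 70 min and 4 h and spread over a wider range than control at 8 h. The 70 min difference was 0.38 ± 0.10 (SE, 1.3-fold, adjusted p = 0.0113) and that at 4 h 0.26 (adjusted p = 0.181). The call was lost on dropping control array 2 (adjusted p = 0.0537) or 70 min array 2 (adjusted p = 0.0568). Psmd3, also of the lid, read 8.42, 8.29 and 8.40 in control, 8.63, 8.83 and 8.60 at 70 min, 8.73, 8.55 and 8.62 at 4 h and 8.52, 8.57 and 8.50 at 8 h. All 9 treated arrays lay above the control arrays, by 0.31 ± 0.08 (SE) at 70 min (adjusted p = 0.0094), 0.26 at 4 h (adjusted p = 0.0692) and 0.16 at 8 h (adjusted p = 0.91). The 70 min call was lost on dropping control array 2 (adjusted p = 0.0522) or 70 min array 2 (adjusted p = 0.0609).

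Psmd1 and Psmd13 rose at both early times. Psmd1, the large scaffold of the base, read 9.59, 9.53 and 9.59 in control, 9.85, 9.77 and 9.81 at 70 min, 9.83, 9.86 and 9.77 at 4 h and 9.61, 9.61 and 9.63 at 8 h. The arrays of each group were close together and the 6 arrays of the early times stood apart from the 6 others. Differences from control were 0.24 ± 0.05 (SE) at 70 min (adjusted p = 0.00419) and 0.25 ± 0.05 at 4 h (adjusted p = 0.00863), and 0.05 at 8 h. The 4 h call was lost on dropping control array 2 (adjusted p = 0.0557). Psmd13, a lid subunit, read 9.44, 9.42 and 9.58 in control, 9.74, 9.78 and 9.71 at 70 min, 9.79, 9.64 and 9.69 at 4 h and 9.65, 9.56 and 9.58 at 8 h. It was above all control arrays at 70 min (0.26 ± 0.06, SE, adjusted p = 0.0068) and at 4 h (0.23 ± 0.06, adjusted p = 0.0469), while 8 h overlapped with control. The 4 h call was lost on dropping any of 9 arrays: control arrays 1 and 2 (adjusted p = 0.186 and 0.21), 70 min arrays 1 to 3 (0.053, 0.0569 and 0.0572), 4 h arrays 1 and 3 (0.195 and 0.0842) and 8 h arrays 2 and 3 (0.0699 and 0.055). At 70 min both genes stayed called whichever array was left out.

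Psmd7, the lid partner of the deubiquitinase Psmd14, read 9.13, 9.13 and 9.17 in control, 9.38, 9.32 and 9.30 at 70 min, 9.42, 9.31 and 9.31 at 4 h and 9.30, 9.18 and 9.18 at 8 h. All 9 treated arrays lay above the control arrays, by 0.19 ± 0.06 (SE) at 70 min (adjusted p = 0.0454), 0.20 at 4 h (adjusted p = 0.0766) and 0.08 at 8 h. The 70 min call was close to the threshold and was lost on dropping any of 8 arrays: control arrays 1 to 3 (adjusted p = 0.138, 0.113 and 0.0857), 70 min arrays 1 to 3 (0.107, 0.0921 and 0.0723), 4 h array 2 (0.0524) and 8 h array 2 (0.0626). The 5 non-ATPase subunits that did not pass at 70 min had log2 fold changes of 0.07 (Psmd4, a ubiquitin receptor), 0.12 (Psmd11), 0.15 (Psmd2), 0.18 (Psmd14) and 0.19 (Psmd6). None of the 11 was below control at 70 min or 4 h on average.

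The 6 ATPases form the ring that unfolds the substrate. At 70 min 3 of them rose and at 4 h 2, where 6.76% and 2.08% of all genes were called higher. Their median log2 fold changes were 0.23 at both times and 0.07 at 8 h. Psmc1 read 9.29, 9.33 and 9.36 in control, 9.59, 9.60 and 9.49 at 70 min, 9.62, 9.51 and 9.63 at 4 h and 9.45, 9.46 and 9.45 at 8 h. All 9 treated arrays lay above the control arrays, by 0.23 ± 0.06 (SE) at 70 min (adjusted p = 0.00935), 0.26 ± 0.06 at 4 h (adjusted p = 0.014) and 0.12 at 8 h (adjusted p = 0.906). The 70 min call was lost on dropping control array 1 (adjusted p = 0.0521), and that at 4 h without control array 1 or 2 (0.0794 and 0.0532) or 4 h array 1 or 3 (0.0537 for each). Psmc2 read 9.80, 9.87 and 9.92 in control, 10.11, 10.04 and 10.12 at 70 min, 10.15, 10.07 and 10.03 at 4 h and 10.03, 9.93 and 9.90 at 8 h. The arrays of the early times were all above control, by 0.23 ± 0.06 (SE) at 70 min (adjusted p = 0.0104) and 0.22 ± 0.06 at 4 h (adjusted p = 0.035), and those of 8 h overlapped with it. The 70 min call was lost on dropping control array 1 (adjusted p = 0.064), and the 4 h call without any one of control arrays 1 to 3 (0.175, 0.115 and 0.0524), 4 h arrays 1 and 2 (0.15 and 0.0726) or 8 h array 2 (0.0564).

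Psmc5 read 8.21, 8.20 and 8.06 in control, 8.60, 8.30 and 8.35 at 70 min, 8.44, 8.36 and 8.29 at 4 h and 8.25, 8.14 and 8.17 at 8 h. The 70 min arrays were above control with array 1 well above the other 2, giving 0.26 ± 0.08 (SE, adjusted p = 0.0485), and the 4 h difference of 0.21 did not pass (adjusted p = 0.231). The call was lost on dropping any one of control arrays 1 to 3 (adjusted p = 0.0824, 0.0764 and 0.192), 70 min arrays 1 and 3 (0.168 and 0.069), 4 h array 2 (0.0556) or 8 h arrays 2 and 3 (0.0656 and 0.0567). Psmc3 and Psmc4 had differences of the same size, 0.24 and 0.26 at 70 min and 0.23 and 0.25 at 4 h, and did not pass (adjusted p = 0.06 and 0.0859 at 70 min). Psmc6 stood at -0.03 at 70 min and -0.0043 at 4 h, with overlapping arrays throughout. It was the only regulatory particle gene with a log2 fold change below 0 at either early time.

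**Figure D2:**
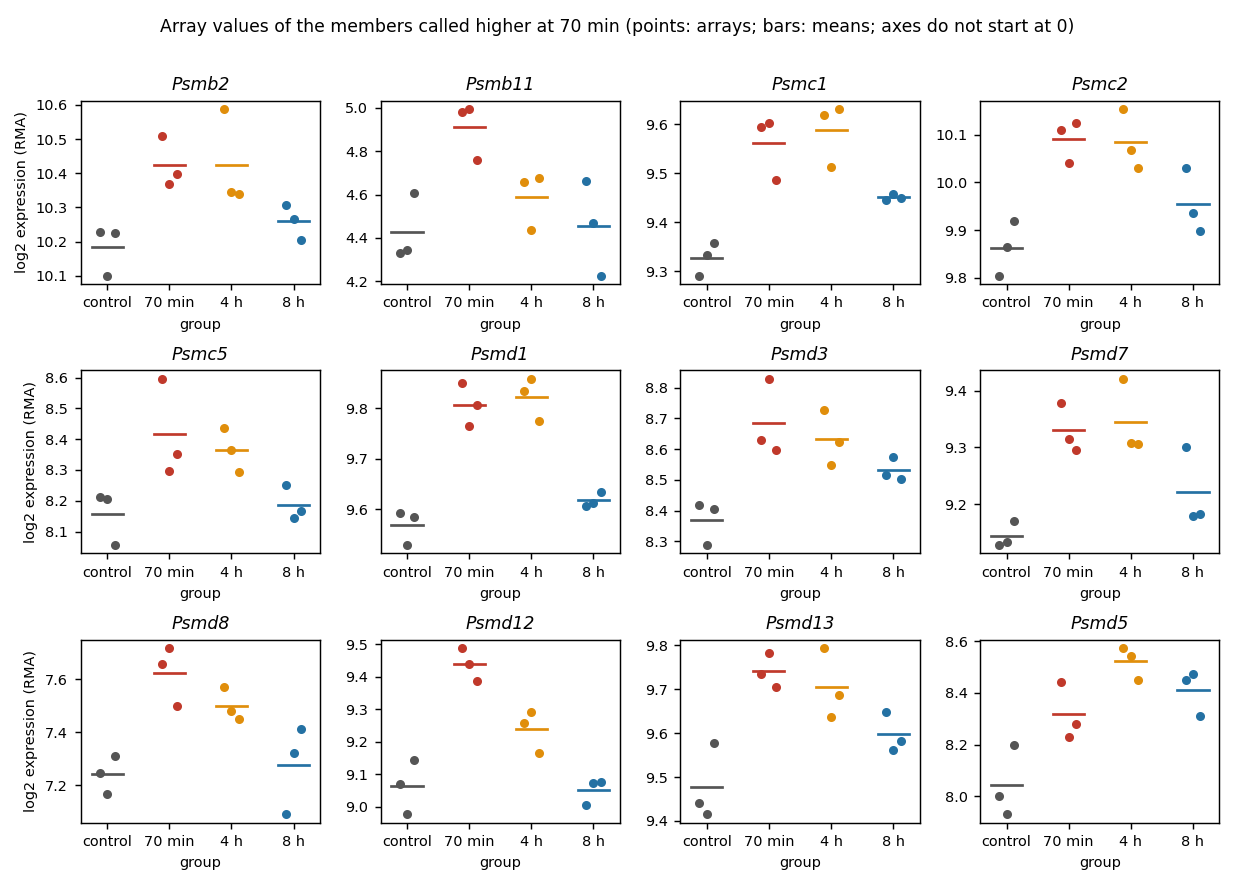
Log2 expression (y axis, which does not start at 0) in every array of control and of 70 min, 4 h and 8 h of SIN-1 (x axis) for the 12 proteasome genes called higher at 70 min; points are arrays and bars the means of 3. In each panel the 3 points at 70 min lie above the 3 control points, and Psmd12 returns to the control range at 8 h while the 8 h points of Psmd5 stay above control.

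In the constitutive core 1 of 13 genes rose at 70 min (7.69%), near the 6.76% of all genes called higher. At 4 h 0 of 13 rose, where 2.08% of all genes did. The medians were 0.10, 0.14 and 0.07 at the 3 times. Psmb2, a beta subunit without proteolytic activity, read 10.23, 10.10 and 10.23 in control, 10.51, 10.37 and 10.40 at 70 min, 10.59, 10.34 and 10.34 at 4 h and 10.31, 10.27 and 10.21 at 8 h. The arrays of both early times were above control, by 0.24 ± 0.07 (SE) at 70 min (adjusted p = 0.0225) and by 0.24 at 4 h (adjusted p = 0.0606). The 70 min call was lost on dropping control array 2 (adjusted p = 0.107) or 70 min array 1 (adjusted p = 0.0753). The other beta subunits outside the catalytic sites, Psmb1, Psmb3 and Psmb4, were at 0.10, 0.18 and 0.11 at 70 min and 0.13, 0.20 and 0.14 at 4 h. The 6 alpha subunits analysed, without Psma3, belong to the ring that forms the gate of the barrel. They ranged from -0.05 (Psma2) to 0.19 (Psma5) at 70 min and from -0.03 to 0.22 for the same genes at 4 h. Against control 0 of them were called by limma. At 70 min 3 of the 6 had an unadjusted limma p under 0.05, beside 5044 of all 18166 genes.

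The 3 catalytic beta subunits did not pass at any time. Psmb6 (the beta1 site, caspase-like) read 9.49, 9.38 and 9.43 in control, 9.45, 9.41 and 9.44 at 70 min, 9.72, 9.66 and 9.52 at 4 h and 9.71, 9.48 and 9.46 at 8 h. The 70 min arrays lay within the control range and the 4 h arrays above it: the log2 fold change was 0.00 at 70 min (95% interval -0.15 to 0.15, from limma) and 0.20 at 4 h (0.05 to 0.35, adjusted p = 0.153). A second probe of Psmb6 gave -0.01 at 70 min and 0.11 at 4 h. Psmb7 (the beta2 site, trypsin-like) read 10.06, 9.96 and 9.90 in control, 10.10, 10.10 and 9.89 at 70 min, 10.17, 10.00 and 10.07 at 4 h and 10.12, 9.88 and 9.84 at 8 h. Its groups overlapped throughout, with 0.06 at 70 min (-0.11 to 0.22). Psmb5 (the beta5 site, chymotrypsin-like) read 8.61, 8.54 and 8.58 in control, 8.74, 8.59 and 8.44 at 70 min, 8.90, 8.72 and 8.57 at 4 h and 8.82, 8.69 and 8.49 at 8 h. Its treated arrays spread to both sides of control, with 0.01 at 70 min (-0.19 to 0.22) and 0.15 at 4 h (adjusted p = 0.512).

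The interferon-inducible counterparts of these subunits did not pass either. Psmb9, which replaces Psmb6, read 6.18, 6.35 and 6.24 in control, 6.12, 6.17 and 6.07 at 70 min, 6.22, 6.13 and 6.30 at 4 h and 6.39, 6.07 and 6.31 at 8 h. The 70 min arrays were just below control, a difference of -0.13 (-0.36 to 0.09, adjusted p = 0.463), and the later arrays overlapped with it. Psmb10, which replaces Psmb7, read 6.48, 6.49 and 6.69 in control, 6.38, 6.95 and 6.67 at 70 min, 6.83, 6.42 and 6.25 at 4 h and 6.87, 6.44 and 6.57 at 8 h. It varied more within a treated group than between groups, with 0.12 at 70 min (-0.22 to 0.45). Psmb8, which replaces Psmb5, read 4.84, 5.15 and 4.88 in control, 5.02, 4.83 and 4.89 at 70 min, 4.95, 4.57 and 5.18 at 4 h and 4.74, 4.91 and 5.15 at 8 h. These groups overlapped as well, with -0.04 at 70 min (-0.38 to 0.29). The mean of Psmb8, 4.93, is not far above 4.34, the median of probes with no annotated gene, so a small change may not show. At 70 min the intervals of Psmb10 and Psmb8 reach past 0.23, the median change of the regulatory particle, while the upper bound of Psmb9 was 0.09.

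**Figure D3:**
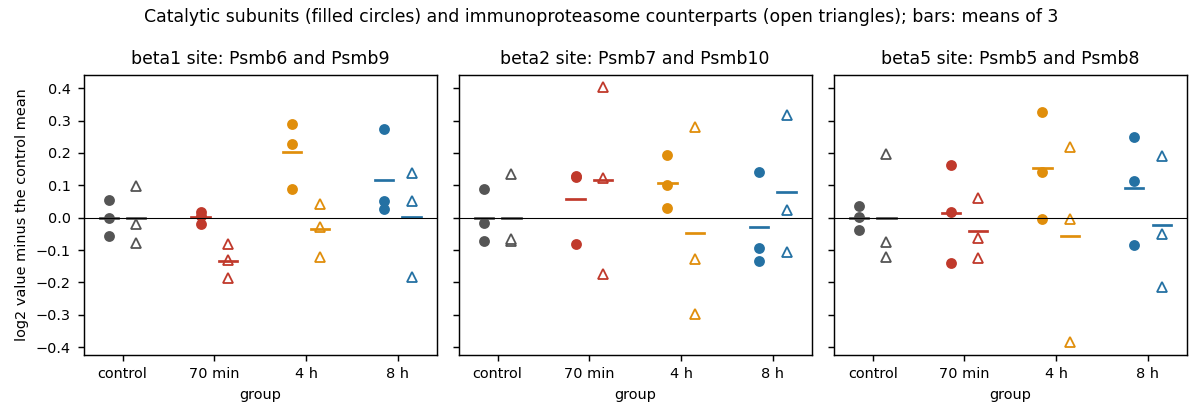
Log2 value minus the control mean (y axis) in every array of the 4 groups (x axis) for the catalytic subunits Psmb6, Psmb7 and Psmb5 (filled circles) and the immunoproteasome counterparts Psmb9, Psmb10 and Psmb8 (open triangles), with the means of 3 as bars. Groups overlap in most panels. The 4 h circles of Psmb6 lie above its control circles and the 70 min triangles of Psmb9 just below its control triangles.

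Psmb11, the beta5 subunit of the thymoproteasome, which is known from the thymic cortex, read 4.33, 4.34 and 4.61 in control, 4.98, 4.99 and 4.76 at 70 min, 4.66, 4.44 and 4.68 at 4 h and 4.66, 4.47 and 4.23 at 8 h. Its 70 min arrays were above all others, by 0.48 ± 0.14 (SE) over control (adjusted p = 0.0315), but the control values lie around 4.34, the median of probes with no annotated gene. The call was lost on dropping control array 1 or 2 (adjusted p = 0.121 and 0.103) or 70 min array 1 or 2 (0.0672 and 0.106). Its neighbour Psmb5 did not pass, as given above. A like low signal was seen for the pseudogene Psma6-ps1, at 2.81, 2.88 and 2.89 in control, 3.44, 3.69 and 3.61 at 70 min, 2.92, 2.97 and 3.03 at 4 h and 2.68, 2.82 and 3.33 at 8 h. The 70 min arrays stood above all the rest, by 0.72 ± 0.15 (SE) over control (adjusted p = 0.00359). All 12 values lay below 4.34, so no fold is given. Without the 3 arrays of highest median the adjusted p was 0.182. Its parent gene Psma6 stood at -0.04 at 70 min, and probes of near-identical copies may read each other's transcripts.

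The other 4 genes outside the role groups did not pass. Psmc3ip, a meiotic recombination factor named for its binding to Psmc3, read 7.04, 6.97 and 7.43 in control, 6.82, 6.78 and 6.94 at 70 min, 7.32, 7.19 and 6.70 at 4 h and 7.15, 7.18 and 7.12 at 8 h. Its 70 min arrays were below control, with a difference of -0.30 ± 0.14 (SE, adjusted p = 0.172), the lowest log2 fold change of the 48 genes at that time. Psmb3l2, Psmd1-ps1 and Psme3ip1 were at 0.19, 0.20 and -0.17 at 70 min.

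Of the 4 genes for other caps and an inhibitor 0 were called at any time by limma, and 0 had an unadjusted p under 0.05 against control. Over all genes 6.76% were called higher and 7.81% lower at 70 min, and 2.08% and 1.77% at 4 h. The 8 h share was 0.0275% in either direction. An unadjusted limma p under 0.05 was found for 5044, 2746 and 993 of all 18166 genes at the 3 times. With only 4 genes, counts of 0 are not read as a result. Psme4, an ATP-independent activator of the core, read 9.13, 9.06 and 9.20 in control, 9.08, 8.77 and 8.99 at 70 min, 8.72, 9.21 and 9.02 at 4 h and 8.75, 9.00 and 9.12 at 8 h. Treated arrays reached below the control range and overlapped with it, with -0.18 ± 0.11 (SE) at 70 min (adjusted p = 0.329), -0.14 at 4 h and -0.17 at 8 h, the lowest values of the 43 genes at each time. Psme1 and Psme2, the interferon-inducible cap subunits, were at -0.14 and 0.08 at 70 min and 0.18 and 0.17 at 8 h. Psmf1, an inhibitor of the core, was at -0.02, 0.01 and 0.05 at the 3 times.

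Of the 5 assembly factors Psmd5 alone was called, at 70 min and 4 h, where 6.76% and 2.08% of all genes were called higher. Psmd5, a chaperone of the regulatory particle base that leaves before the particle is complete, read 8.00, 7.93 and 8.20 in control, 8.44, 8.23 and 8.28 at 70 min, 8.57, 8.54 and 8.45 at 4 h and 8.45, 8.47 and 8.31 at 8 h. All 9 treated arrays lay above the control arrays, with the 4 h arrays above those of 70 min. The difference from control was 0.27 ± 0.08 (SE) at 70 min (adjusted p = 0.0373), 0.48 ± 0.08 at 4 h (1.39-fold, adjusted p = 0.00298) and 0.37 ± 0.08 at 8 h (adjusted p = 0.264). The 4 h call held in all 23 refits, and the change was smaller than the 1.5-fold minimum. The 70 min call was lost on dropping control array 1 or 2 (adjusted p = 0.13 and 0.155), 70 min array 1 or 3 (0.116 and 0.0706) or 8 h array 2 (0.0505). Psmd9, another base chaperone, and Psmg1 and Psmg2, which pair to build the alpha ring, were at 0.11, 0.09 and 0.13 at 70 min and 0.15, 0.10 and 0.19 at 4 h. Psmg4, a further alpha ring chaperone, was at -0.09 and 0.06.

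Array by array, the median over the 17 regulatory particle genes, as a difference from the control mean, was 0.01, -0.06 and 0.03 in control, 0.26, 0.20 and 0.16 at 70 min, 0.28, 0.16 and 0.17 at 4 h and 0.12, 0.04 and 0.04 at 8 h. The 6 arrays of the early times were above the other 6. For the 13 core genes the same medians were 0.05, -0.03 and 0.00 in control, 0.16, 0.02 and 0.04 at 70 min, 0.23, 0.14 and 0.09 at 4 h and 0.12, 0.05 and 0.01 at 8 h. The core overlapped with control at 70 min and lay above it at 4 h, and the difference between core and regulatory particle was not tested.

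**Figure D4:**
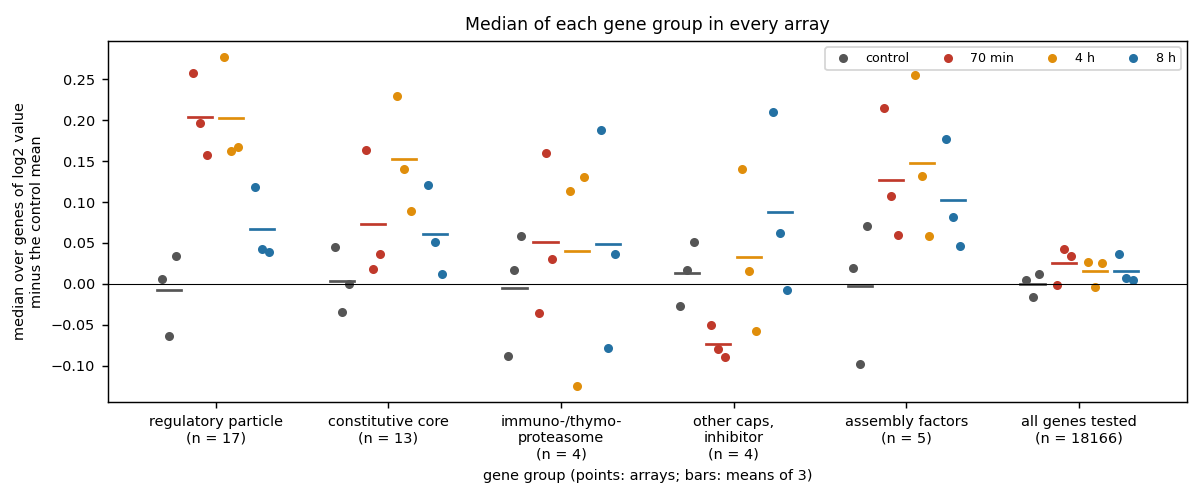
Median over the genes of each role group (x axis) of the log2 value minus the control mean (y axis) in every array, with the means of 3 arrays as bars and all 18166 genes at the right. The regulatory particle at 70 min and 4 h runs from 0.16 to 0.28, above its control arrays, and the all-gene medians stay near 0.

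Few genes were called between treated times. From 4 h to 8 h 2 of 43 fell and 0 rose, where 1.54% of all genes were called lower. From 70 min to 8 h 6 fell and 0 rose, where 6.43% were called lower. Between 70 min and 4 h 28 of 43 log2 fold changes were above 0, with a median of 0.02, and 0 were called by limma (7.63% of all genes were, in either direction). Of the 43, 5 had an unadjusted limma p under 0.05, beside 3648 of all 18166 genes. These comparisons share arrays with those against control. Psmd12 was lower at 8 h than at 70 min with a difference of -0.39 (adjusted p = 0.00035), a call that held in all 23 refits and that a 1.5-fold minimum ends. Psmd8, at -0.35 (adjusted p = 0.0178), lost the call without 70 min array 2 (0.0819) or 8 h array 1 (0.0889). Psmd1 was lower at 8 h than at 70 min with a difference of -0.19 (adjusted p = 0.0174; without 70 min array 1 0.0534, without 8 h array 2 0.0644). Psmd1 was also lower at 8 h than at 4 h with a difference of -0.21 (adjusted p = 0.0354), a call lost without control array 1 or 3 (0.0565 and 0.0539), 4 h array 1 or 2 (0.0811 and 0.13) or any 8 h array (0.0855, 0.141 and 0.0696).

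Psmd14, the lid's deubiquitinase, and Psma7, an alpha subunit, were not called against control and are singled out after their values were seen. Psmd14 read 9.20, 9.25 and 9.27 in control, 9.54, 9.43 and 9.30 at 70 min, 9.40, 9.45 and 9.47 at 4 h and 9.20, 9.19 and 9.16 at 8 h. The 8 h arrays were the lowest, with a difference of -0.25 from 4 h (adjusted p = 0.0326) and of -0.24 from 70 min (adjusted p = 0.0148). The first of these was lost without control array 1 (adjusted p = 0.0511), 4 h array 2 or 3 (0.0936 and 0.103) or any 8 h array (0.0629, 0.117 and 0.0978), and the second without 70 min array 1 (0.0621). Psma7 read 11.10, 11.18 and 11.16 in control, 11.30, 11.34 and 11.19 at 70 min, 11.31, 11.16 and 11.12 at 4 h and 11.12, 11.10 and 11.10 at 8 h. The 8 h arrays lay below those of 70 min, with a difference of -0.17 (adjusted p = 0.0361), a call lost without 70 min array 1 or 2 (0.0835 and 0.161) or any 8 h array (0.061, 0.103 and 0.0841). Psmb11 was lower at 8 h than at 70 min with a difference of -0.46 (adjusted p = 0.0391), lost without 70 min array 1 or 2 (0.0815 and 0.123) or 8 h array 2 or 3 (0.0938 and 0.179). In the F test over the 4 groups 10 of 43 genes passed, where 15.3% of all genes did: 8 of the 17 regulatory particle genes, 1 of 13 core genes and 1 of 5 assembly factors. The count was 5 without control array 1 or control array 2, 5 without the 3 arrays of highest median, 2 without the trend and 1 with arrays centred.

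Genes that work with the proteasome were followed in 4 lists, and their calls were not recomputed with arrays left out. Over all genes 6.76% were called higher and 7.81% lower at 70 min, and 2.08% and 1.77% at 4 h. At 8 h 0.0275% were called in either direction. Of 13 measured partners, among them maturation factors, shuttle proteins and deubiquitinases, 4 rose at 70 min, 1 at 4 h and 0 at 8 h, with medians of 0.15, 0.14 and 0.05. Zfand2a, a stress-induced protein that associates with the regulatory particle, read 7.23, 7.38 and 7.37 in control, 7.88, 7.77 and 7.93 at 70 min, 7.75, 7.67 and 7.77 at 4 h and 7.52, 7.45 and 7.53 at 8 h. All 9 treated arrays were above control, by 0.53 ± 0.08 (SE) at 70 min (adjusted p = 0.000155) and 0.40 ± 0.08 at 4 h (adjusted p = 0.00671). Txnl1, a thioredoxin-like protein bound to the regulatory particle, Rad23b, a shuttle for ubiquitinated substrates, and Pomp, the maturation factor of the core, rose at 70 min by 0.30, 0.25 and 0.24 (adjusted p = 0.00493, 0.00166 and 0.0361). From 70 min to 8 h Zfand2a, Txnl1 and Rad23b fell, with differences of -0.36, -0.20 and -0.24 (adjusted p = 0.00389, 0.0443 and 0.00238), and from 70 min to 4 h Zfand5 rose by 0.27 (adjusted p = 0.0223). Of 6 measured ubiquitin and p97 genes 2 rose at 70 min and 2 at 4 h: Vcp, the p97 unfoldase, by 0.21 at both times (adjusted p = 0.00688 and 0.0179), its cofactor Nploc4 by 0.35 at 70 min (adjusted p = 0.00533) and its cofactor Ufd1 by 0.21 at 4 h (adjusted p = 0.0492).

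Of 9 genes for the control of NRF1 and NRF2, 1 rose and 1 fell at 70 min and 0 were called by limma at 4 h and 8 h against control. At 70 min 6.76% of all genes were called higher and 7.81% lower. Calls as few as these, here and for class I antigen processing below, are not read as a result about the list. Ddi2, the protease that activates NRF1, rose by 0.35 (adjusted p = 0.014). Ngly1, the glycanase that processes it, read 6.83, 6.88 and 6.97 in control and 6.73, 6.42 and 6.17 at 70 min, a difference of -0.45 ± 0.13 (SE, adjusted p = 0.0236). Nfe2l1 read 9.12, 9.05 and 9.19 in control and 8.98, 9.04 and 8.93 at 70 min, below control in every array, and the difference of -0.14 did not pass (adjusted p = 0.161). Between treated times, Nfe2l1, Ngly1 and Keap1, the inhibitor of NRF2, were higher at 8 h than at 70 min by 0.20, 0.52 and 0.28 (adjusted p = 0.0359, 0.0092 and 0.0496). Mafg, a dimer partner of both factors, was lower at 4 h than at 70 min, at -0.41 (adjusted p = 0.016), and higher at 8 h than at 4 h by 0.48 (adjusted p = 0.0107). Nfe2l2 was at -0.03 at 70 min and -0.10 at 4 h (adjusted p = 0.723 and 0.354). Of 10 genes for class I antigen processing 1 was called at 70 min, Irf1, an interferon-responsive transcription factor, at 0.45 (adjusted p = 0.00716), and 0 by limma at 4 h and 8 h against control. From 70 min to 8 h Irf1 fell, at -0.35 (adjusted p = 0.0314), and Tapbpl, a peptide editor of class I molecules, and Stat2, an interferon signalling factor, rose by 0.41 and 0.39 (adjusted p = 0.0317 and 0.00802).

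The RefSeq annotation placed 46 of the 48 genes, on 17 chromosomes. Psmb5 and Psmb11 are adjacent, Psmb8 and Psmb9 have Tap1, a peptide transporter gene, between them, and Psme1 and Psme2 have Emc9 between them. Psmb4 and Psmd4 have 4 coding genes between them. In none of these pairs were both genes called at any time.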

How the data were processed

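The authors made the values with RMA in Affymetrix Expression Console (version 1.3.1.187, as the submitters' processing notes give it) from biotin-labelled whole-transcript arrays and deposited a table of 36685 probes in 12 samples. These deposited values are read here as log2 expression; their unit is not stated, and this scale was inferred from the range of 1.19 to 13.63. RMA equalises the arrays' distributions, which removes differences in total RNA per cell and compresses small folds of dim probes. The genome build is not given in the sources used here. Precision is limited by the number of arrays.

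By the platform's annotation 18511 probes carried 1 gene symbol; another 575 carried several, and 17599 were not in it. Of the first, 18394 matched an identifier in RefSeq's gene table (GRCr8) and 0 symbols changed. For the 291 genes with several such probes the brightest was kept, giving 18166 genes.

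Using limma 3.58.1 (R 4.3.3), group means were fitted to every gene over the 12 arrays by lmFit and moderated by eBayes with a trend; 8 residual degrees of freedom remained before moderation. The 6 comparisons used two-sided moderated tests, beside an F test. Benjamini-Hochberg adjustment ran over all genes of a comparison, and a gene with an adjusted p under 0.05 was called. The calculation was tested on simulated data. Role groups were described by counts and medians and were not tested as groups. The members, gene lists and tests were chosen with earlier results of these data known. By the rule for naming, array values are given for members called against control, for the catalytic subunits and their counterparts, and for the members with the highest and lowest change at each time. Of the other lists the called genes are named, at most 4 each, and Nfe2l1 and Nfe2l2 always.

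The alternatives tried were a block for the replicate number, another prior variance (no trend, or robust), weights for arrays, quantile normalization repeated, centred arrays, bright genes only, averaged probes, a fit of the compared groups only, a minimum fold of 1.5, and each array dropped in turn. Dropping the 3 arrays with the brightest medians, and using the array median as covariate, were decided on after looking at the values. Promoters came from a RefSeq table, and protein sequences were not used here. Figures were drawn with matplotlib 3.10.9.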

Additional observations from a re-analysis of the deposited data

Results flagged for a closer look

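Changes that differed between treated times by the test of the difference itself were looked at again. Psmd12 at 8 h differed from 70 min by -0.39 (adjusted p = 0.00035), Psmd8 by -0.35 (0.0178), Psmd14 by -0.24 (0.0148), Psmd1 by -0.19 (0.0174), Psma7 by -0.17 (0.0361) and Psmb11 by -0.46 (0.0391), in each case with all 3 arrays of 8 h below all 3 of 70 min. Between 4 h and 8 h the differences of Psmd14, at -0.25 (adjusted p = 0.0326), and Psmd1, at -0.21 (0.0354), passed. The low-signal pseudogene Psma6-ps1 differed from 70 min by -0.61 at 4 h (adjusted p = 0.0203) and by -0.63 at 8 h (0.00807). Its call at 4 h was lost on dropping 70 min array 2 (adjusted p = 0.0888) or array 3 (0.0734), or 4 h array 1 (0.0656) or array 2 (0.0588). All p-values are limma's, adjusted over all genes. Psmd14 and Psma7 were picked out after their values were seen.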

How the results depend on the processing

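Of 2880 log2 fold changes of named genes in refits, 2717 stayed on their side of the threshold, 139 calls were lost and 24 were gained. Most of the 2880 belong to comparisons that were not called in the main fit and could not lose a call. The 139 are therefore a larger share of the calls than of the 2880. Psmd14 and Psma7 were not among the genes counted here. No called change turned its sign, while differences that were not called did so, such as Psmb10 at 70 min, from -0.0259 to 0.263 with 1 array left out. Psmd12 (70 min, and 8 h against 70 min) and Psmd5 (4 h) kept their calls in all 23 refits and lost them with a minimum fold of 1.5. Counts over the 43 genes moved as follows. At 70 min 4 were called without the trend, 1 with arrays centred, 4 without the 3 arrays of highest median and 0 with a fold of at least 1.5. At 4 h the counts were 1 without the trend, 3 after a further quantile normalization, 1 with arrays centred, 8 among the brighter genes, 3 with the compared groups alone, 2 without those 3 arrays and 0 at 1.5-fold. At 8 h 1 (Psmd5, adjusted p = 0.0313) was called with array weights. Between 70 min and 4 h 1 (Psmd12) was called after a further quantile normalization, among the brighter genes and with each array's median as covariate. From 4 h to 8 h 0 were called without the trend, with arrays centred, with the compared groups alone, without those 3 arrays or at 1.5-fold. From 70 min to 8 h the counts were 3, 1, 3 and 0 without the trend, centred, without those 3 arrays and at 1.5-fold, and in the F test 2, 1 and 5 for the first 3 of these. With 1 array left out the counts ran from 5 to 14 at 70 min, 1 to 5 at 4 h, 0 to 0 at 8 h, 0 to 1 between 70 min and 4 h, 0 to 2 from 4 h to 8 h, 3 to 7 from 70 min to 8 h and 5 to 13 in the F test. Median log2 fold changes at 70 min were 0.18 for the ATPases with arrays centred. For the other regulatory subunits they were 0.14 centred, 0.26 without the 3 arrays and 0.26 with the covariate, and for the assembly factors 0.21 without the 3 arrays. For the other caps they were -0.054 after a further quantile normalization, -0.13 centred, -0.0498 without the 3 arrays, -0.0283 with the covariate and -0.1226 to -0.0323 with 1 array left out. At 4 h the other regulatory subunits ran from 0.1634 to 0.2138 with 1 array left out. At 8 h the alpha subunits were at 0.0825 centred and 0.0242 with the covariate and ran from 0.0368 to 0.0956 with 1 array left out, and the other regulatory subunits from 0.028 to 0.0958. Same-numbered arrays did not deviate together (correlations from -0.322 to 0.24 over 18 pairs, against -0.405 to 0.403 over 36 other pairs), and the replicate block gave 13 calls at 70 min and ended the calls of Psmd13 at 4 h and Psmb11 from 70 min to 8 h, while Psmb2 (4 h, and 8 h against 70 min) and Psmc5 (8 h against 70 min) passed with it. The causes of these differences were not tested.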
